A study of Mus musculus with 12 samples.

Results

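The genes described here carry cholesterol out of cells or handle it inside the lysosome and the endoplasmic reticulum. They are Apoe, Abca1, Abcg1, Nr1h3, Nr1h2, Lipa, Npc1, Npc2, Soat1 and Ch25h, 10 of the 31053 genes listed in the matrices. They were picked by name for these roles, and all 10 were found in each of the 12 single-cell RNA-seq matrices. The cells were the stromal vascular fraction (SVF), the part of fat that remains once the floating adipocytes are removed, of epididymal (eWAT) and inguinal (iWAT) white adipose tissue. The mice were male and 12 weeks old and had been given vehicle (a methylcellulose solution) or rosiglitazone (Rosi), a PPARγ agonist, at 30 mg/kg by gavage every morning and evening for 3 days. The 3 groups were C57BL/6J mice on vehicle (WT-Veh), Lepob/Lepob mice on vehicle (ob/ob-Veh) and Lepob/Lepob mice on Rosi (ob/ob-Rosi), with 2 libraries per group and depot. Lepob/Lepob mice lack functional leptin in every tissue and become obese. No library came from lean mice given Rosi, so the drug was compared within ob/ob mice only.

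Macrophages of adipose tissue take up lipoproteins and the remains of dead adipocytes. The lysosomal acid lipase encoded by Lipa splits cholesteryl esters there, and Npc2 and Npc1 pass the freed cholesterol out of the lysosome. Cholesterol is then either esterified again by Soat1 or exported by the transporters Abca1 and Abcg1 to lipoprotein particles, of which Apoe is a protein part. The nuclear receptors LXRα (Nr1h3) and LXRβ (Nr1h2) sense oxysterols and switch on Abca1, Abcg1 and Apoe, and Ch25h makes the oxysterol 25-hydroxycholesterol. Macrophages that are rich in lysosomal and lipid genes are called lipid-associated macrophages (LAMs), those along vessels perivascular macrophages (PVMs) and the others non-perivascular macrophages (NPVMs).

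The values below turn on Apoe and Lipa, lower together under the label ob/ob-Veh, and on Abca1, whose means lay the other way across classes. For that reason the 250 bases before the transcription start of each are given, 5′ to 3′ on the minus strand that carries all of these genes, from RefSeq on GRCm38.p6. The promoter table matched 8 of the 10 genes. Capitals mark matches to 2 motifs searched on both strands: the direct repeat that LXR binds, written as 2 copies of GGTNA with 5 free bases between them, and CACGTG, the core of an E-box.
Abca1 (chr4:53159896-53160145): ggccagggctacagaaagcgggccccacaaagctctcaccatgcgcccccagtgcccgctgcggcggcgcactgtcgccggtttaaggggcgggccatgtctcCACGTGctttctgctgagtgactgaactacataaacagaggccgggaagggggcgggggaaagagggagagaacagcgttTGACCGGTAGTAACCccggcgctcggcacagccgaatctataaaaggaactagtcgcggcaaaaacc
Apoe (chr7:19699189-19699438): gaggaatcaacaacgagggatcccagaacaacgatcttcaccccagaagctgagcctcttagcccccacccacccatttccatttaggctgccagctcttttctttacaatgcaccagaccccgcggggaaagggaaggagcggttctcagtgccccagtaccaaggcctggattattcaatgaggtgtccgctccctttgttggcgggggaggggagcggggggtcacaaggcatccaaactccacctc
Lipa (chr19:34527475-34527724): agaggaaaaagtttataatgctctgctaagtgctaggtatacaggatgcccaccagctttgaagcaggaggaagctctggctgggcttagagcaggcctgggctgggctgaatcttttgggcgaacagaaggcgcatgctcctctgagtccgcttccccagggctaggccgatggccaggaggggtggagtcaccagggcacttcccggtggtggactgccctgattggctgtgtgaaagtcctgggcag
The Abca1 window holds the E-box at positions −147 to −142 and the direct repeat, read on the reverse strand, at −67 to −53. In the same 250 bases of all 32851 promoters in the table the direct repeat was found in 0.621% and the E-box in 6.02%. No match to either was found in the windows shown for Apoe and Lipa, nor in those of the other matched genes. These are matches of letters only.

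The 12 libraries held 20132553 to 92475986 unique molecular identifiers (UMIs) in 7848 to 18339 barcodes, and 6472 to 17500 cells per library were kept. Libraries of a depot shared at most 0.667% of the barcodes of the smaller one. Cells were clustered per depot and called "X-like" from marker genes. The labels need care: leptin-deficient fat is known for abundant Lep mRNA, yet Lep per 100 Adipoq UMIs was 3.95 and 16.2 in the eWAT libraries labelled ob/ob-Veh against 28.0 and 42.5 in WT-Veh and 240 and 390 in ob/ob-Rosi. In iWAT these ratios were 36.4 and 15.1, 20.1 and 31.6, and 164 and 141, so that ob/ob-Veh and WT-Veh overlapped. The ob/ob-Veh ratios rest on 4 to 43 Lep UMIs per library. LAM-like cells made up 35% and 28.1% of eWAT cells labelled WT-Veh, 0.687% and 1.24% labelled ob/ob-Veh and 34.8% and 36.8% labelled ob/ob-Rosi. Cells of the floating fraction, discarded in the preparation, were not analysed here. Every group name below is therefore the label of the library and no more. The iWAT library labelled WT-Veh replicate 1 stood apart, with a median of 1132 UMIs per kept cell and 8371 of its cells in 3 unnamed clusters (8277 of them in cluster 0).

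Apoe was the most abundant of the 10 genes, and macrophages held most of it. Averaged over libraries of eWAT, its level was 28035 ± 12996 CPM (the gene's UMIs in the summed cells of a class, scaled to the class's total, SD, n = 6) in PVM-like cells and 18538 ± 7415 in LAM-like cells, spreads that overlap. These SDs pool the labels, and within each library the PVM-like level was the higher. Apoe was 4627 in endothelial (EC)-like cells and 1569 in adipocyte progenitor-like cells. In iWAT the same order was found, with 20693 ± 6366 CPM in PVM-like and 6181 ± 2428 in LAM-like cells, which did not overlap. Lymphocytes are not known as an Apoe source, and the level in them serves as a guide to free RNA picked up by droplets. T and natural killer (NKT)-like cells of eWAT had 4578 CPM on average, the level of EC-like cells.

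The share of a library's Apoe UMIs that each class held differed with the label. In eWAT, LAM-like cells held 56.7% and 56.3% of the Apoe UMIs under the label WT-Veh and 60.5% and 72.3% in ob/ob-Rosi, but 2.21% and 4.48% in ob/ob-Veh. PVM-like cells held 69.9% and 67.5% in ob/ob-Veh, against 22.7% and 26.8% in WT-Veh and 22.2% and 10.1% in ob/ob-Rosi. So the main holder of Apoe UMIs in eWAT was the LAM-like class under both other labels and the PVM-like class under ob/ob-Veh. In iWAT, PVM-like cells held 48.3% to 83.2% in every library. Class names differed between depots: cluster 7 of iWAT was PVM-like and cluster 0 of eWAT LAM-like, though both were led by Cxcl2 and Ccl3. Cluster 7 held 40.1% of the iWAT PVM-like cells in ob/ob-Rosi and 21.3% in WT-Veh. The shares are therefore not compared between depots.

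**Figure D1:**
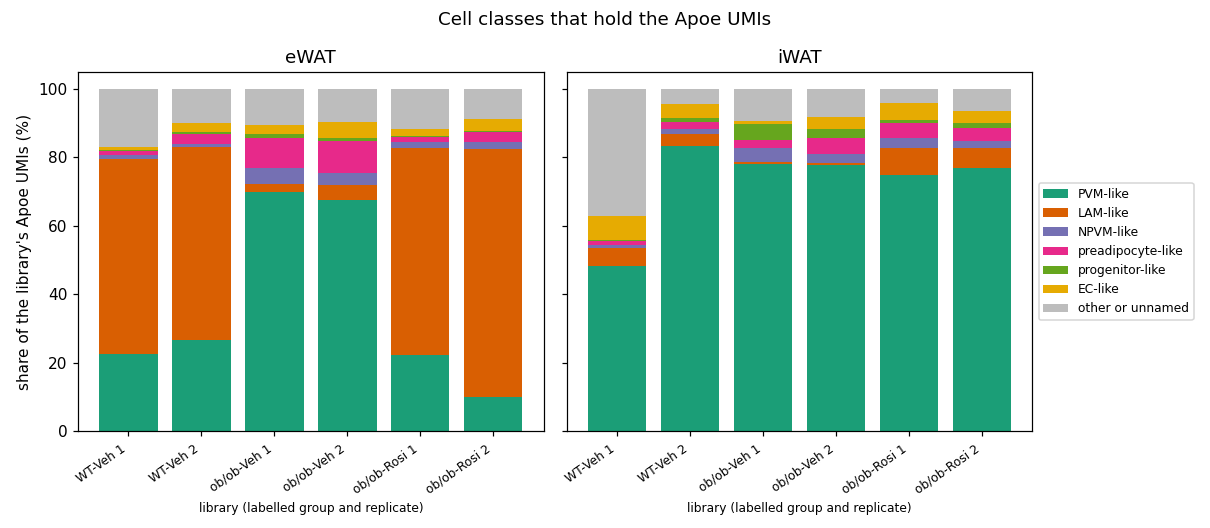
Share of each library's Apoe UMIs (vertical axis, %) by cell class, for the 6 libraries of eWAT (left) and of iWAT (right), named by labelled group and replicate. LAM-like cells fill 56.3% to 72.3% of the bar in both eWAT libraries of WT-Veh and both of ob/ob-Rosi, and 2.21% and 4.48% in those labelled ob/ob-Veh.

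The genes that work in the lysosome were highest in LAM-like cells. Lipa averaged 847 ± 169 CPM (SD, n = 6) in LAM-like cells of eWAT, above NPVM-like (390 ± 196), PVM-like (309 ± 88) and EC-like cells (293 ± 148), which did not differ beyond their spread. Proliferating-like cells of eWAT, an untested class led by Cenpf, Top2a and Mki67, came second at 735 ± 385 CPM (SD, n = 5). That lay within the spread of LAM-like cells. In iWAT, Lipa was 908 ± 318 CPM in LAM-like and 280 ± 118 in PVM-like cells. Npc2 was 1157 ± 133 CPM in LAM-like and 960 ± 234 in PVM-like cells of eWAT, within their spread, and 933 ± 270 and 903 ± 197 in iWAT. Its membrane partner Npc1 was lower, at 113 ± 36 and 101 ± 21 CPM in eWAT and 128 ± 42 and 112 ± 24 in iWAT. Soat1 was 202 ± 47 CPM in LAM-like and 102 ± 32 in PVM-like cells of eWAT, and 260 ± 67 and 132 ± 45 in iWAT. In proliferating-like cells of eWAT Soat1 was 127 ± 57 CPM (SD, n = 5), which overlaps the LAM-like spread. UMIs are counted at the 3′ end of a transcript, so these levels are not scaled by gene length.

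The 2 transporters had their highest means in different classes. Abca1 was highest in PVM-like cells, at 344 ± 168 CPM in eWAT and 395 ± 184 in iWAT (SD, n = 6), and the next classes in eWAT, LAM-like (225 ± 129) and progenitor-like cells (217 ± 63), lay within that spread. Within each eWAT library Abca1 was higher in PVM-like than in LAM-like cells. Abcg1 was highest in LAM-like cells, at 133 ± 38 CPM in eWAT and 182 ± 75 in iWAT, against 40 CPM in PVM-like and 8 in preadipocyte-like and progenitor-like cells of eWAT. Proliferating-like cells of eWAT came second at 91 ± 48 CPM (SD, n = 5), a spread that overlaps that of LAM-like cells. Of the receptors, Nr1h3 was 66 ± 13 CPM in preadipocyte-like, 60 ± 17 in LAM-like and 59 ± 17 in EC-like cells of eWAT, which did not differ beyond their spread, and 14 in PVM-like cells. It was higher (123 ± 67 CPM, SD, n = 4) in eWAT cluster 21, an untested cluster of 166 cells with more adipocyte genes (among them Adipoq, Cidec and Retn) than mural genes among its leading genes. Nr1h2 ranged from 26.4 to 78.5 CPM over the tested classes and libraries of eWAT and from 28.9 to 83.8 in iWAT, with the highest mean in EC-like cells (66 ± 13 CPM in eWAT, against 39 ± 8 in LAM-like cells). Ch25h was scarce, with 8 to 85 UMIs in a whole library.

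The design answers which of the genes differ between ob/ob-Veh and WT-Veh (the ob/ob effect) and between ob/ob-Rosi and ob/ob-Veh (the Rosi effect). The 2 effects share the ob/ob-Veh libraries, so a low value there lowers the first and raises the second. Counts were summed per library and class and fitted with edgeR over all genes, in 6 chosen classes (progenitor-, preadipocyte-, EC-, PVM-, LAM- and NPVM-like). Other classes, among them NKT-like cells, were described without a test. Calls needed an adjusted p no higher than 0.05 and a change of 1.1-fold or more. In eWAT, 57 of the 60 gene and class pairs passed the filter on low counts, and 16 were called for the ob/ob effect, all lower in ob/ob-Veh. Over all genes 4.71% of pairs were called, 2.74% lower and 1.97% higher. The Rosi effect was called in 15 of 57, all higher in ob/ob-Rosi, beside 5.54% of all pairs (3.15% higher, 2.39% lower). Of the 16 and 15, 7 and 5 lay above the level of lymphocyte-like cells (described below) in every group. Without ob/ob-Veh replicate 1 the counts were 8 and 4, without replicate 2 10 and 8, without WT-Veh replicate 1 9 lower pairs and without ob/ob-Rosi replicate 2 9 higher ones. For fits with a library left out the share of all genes called was not counted. The median log2 difference over the 57 pairs was −0.54 and 0.38. For all genes, the median of the 6 class medians was −0.005 and 0.003.

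In iWAT fewer of the genes were called. For the ob/ob effect 4 of 55 pairs were called, all lower, beside 4.07% of all pairs (2.07% lower, 1.99% higher). For the Rosi effect 5 of 55 were called, 4 higher and 1 lower, beside 7.06% of all pairs (3.95% higher, 3.12% lower). Without the iWAT library WT-Veh replicate 1 they became 11 and 10 and without WT-Veh replicate 2 5 and 9, the Rosi count was 1 without either ob/ob-Rosi library, and no pair was called without either ob/ob-Veh library. Here too the share of all genes called was not counted with a library left out. Between ob/ob-Rosi and WT-Veh no pair was called in either depot (0 of 57 and 0 of 55, edgeR), where 0.0256% of all pairs were called in eWAT and 0.0128% in iWAT. There 3 of the pairs in each depot had an unadjusted p under 0.05, and DESeq2 called 0 and 1.

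**Figure D2:**
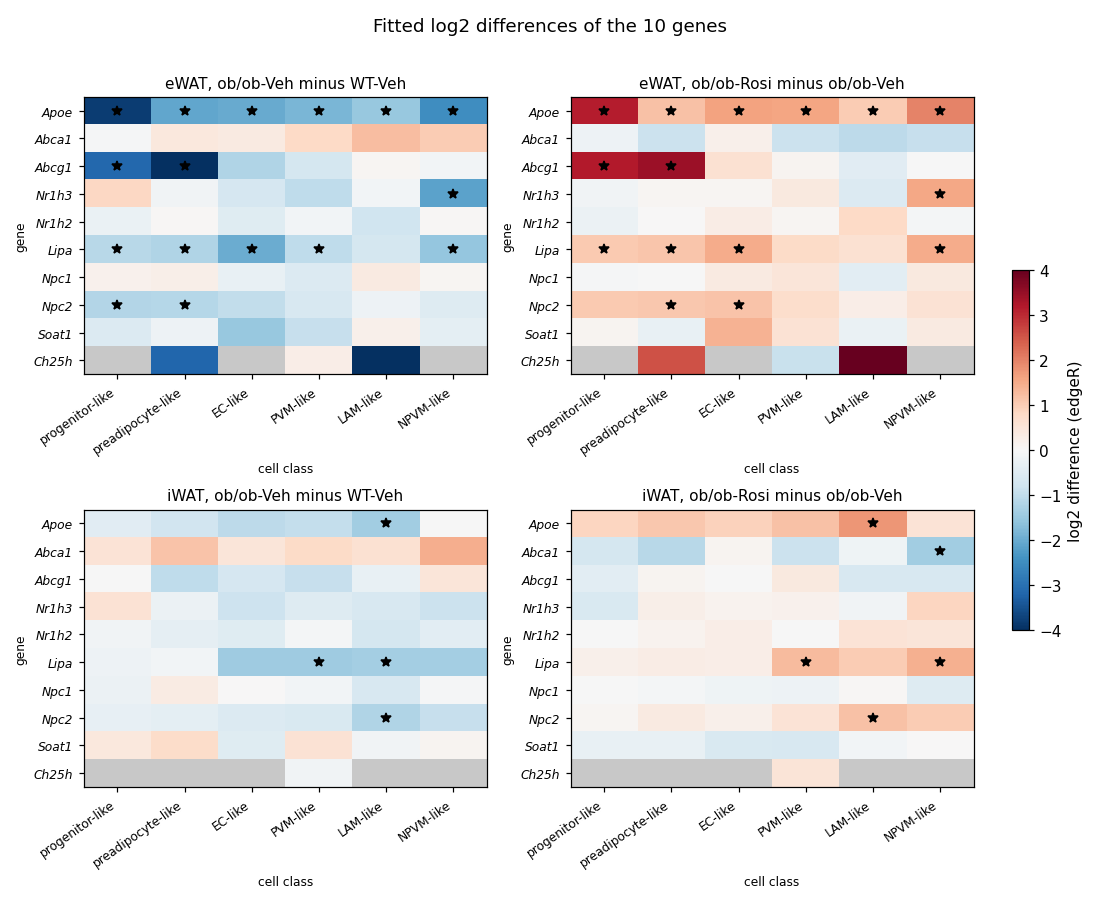
Fitted log2 differences (colour scale) of the 10 genes (rows) in the 6 tested cell classes (columns), for the ob/ob effect and the Rosi effect in eWAT and iWAT, with called pairs marked. In eWAT the 16 called pairs of the ob/ob effect are all negative and the 15 of the Rosi effect all positive, most of them in Apoe and Lipa.

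Apoe was lower in ob/ob-Veh in all 6 tested classes of eWAT. In PVM-like cells it was 41072 and 37805 CPM in WT-Veh libraries, 13007 and 10836 in ob/ob-Veh and 35297 and 30195 in ob/ob-Rosi. Both ob/ob-Veh libraries lay below the other 4, with a log2 difference of −1.83 (SE 0.33, adjusted p = 0.018) from WT-Veh and of 1.58 (SE 0.33, adjusted p = 0.0379) to ob/ob-Rosi. In LAM-like cells the values were 26111 and 27339 CPM in WT-Veh, 10187 and 10704 in ob/ob-Veh and 20562 and 16327 in ob/ob-Rosi. The groups did not overlap, and the ob/ob effect was −1.53 (SE 0.22, adjusted p = 0.00129) and the Rosi effect 1.01 (SE 0.21, adjusted p = 0.0305). The ob/ob-Veh values came from 63 and 96 cells, where WT-Veh had 5146 and 1816. The LAM-like ob/ob effect was called without any 1 library. In PVM-like cells it was not called without ob/ob-Veh replicate 2 (−1.66, adjusted p = 0.0768) or either WT-Veh library (−1.74 and −1.91, adjusted p = 0.16 and 0.113), and the Rosi effect was kept only without ob/ob-Rosi replicate 1 (otherwise 1.41 to 1.74, adjusted p = 0.0674 to 0.128). The LAM-like Rosi effect was not called without either ob/ob-Veh library (adjusted p = 0.132 and 0.149). With library-size scaling neither the LAM-like nor the PVM-like Rosi effect was called (adjusted p = 0.082 and 0.0518).

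The free-RNA reference moved with the label too. Apoe in NKT-like cells of eWAT was 8440 and 4794 CPM in WT-Veh, 801 and 802 in ob/ob-Veh and 8662 and 3968 in ob/ob-Rosi, and in B cell (BC)-like cells the group means were 5544, 625 and 3144. The lymphocyte-like log2 ratio of ob/ob-Veh to WT-Veh was thus −3.05 and −3.15, larger than that of the macrophages. PVM-like cells lay 5.19 to 14.9 times and LAM-like cells 2.92 to 13 times above the lymphocyte-like level in every group. In a sample of 700 UMIs per cell, an Apoe UMI was seen in 98.4% of LAM-like cells in both WT-Veh libraries, 76.2% and 81.3% in ob/ob-Veh and 96.6% and 95.6% in ob/ob-Rosi (unthinned 87.3% to 99.9%). For NKT-like cells the shares were 92.8% and 81.5%, 28.2% and 29.0%, and 86.7% and 63.0% (unthinned 52.9% to 98.9%). The part of free RNA in the macrophage difference was not tested.

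Apoe values of the other eWAT classes lay at or below that reference under at least 1 label. In group means, EC-like cells had 1.03, 2.30 and 0.827 times and NPVM-like cells 1.26, 1.97 and 0.954 times the NKT-like level under WT-Veh, ob/ob-Veh and Rosi labels. In progenitor-like cells they were 3147 and 2366 CPM in WT-Veh, 157 and 258.8 in ob/ob-Veh and 1981 and 1507 in ob/ob-Rosi, only 0.259 to 0.417 times the lymphocyte-like level. The fitted effects, −3.80 (SE 0.35, adjusted p = 1.87e-05) and 3.14 (SE 0.34, adjusted p = 5.79e-05), were called, but at this level no change in the cells' own expression is read from them. In preadipocyte-like cells the values were 3609 and 3893, 774 and 1155, and 2086 and 1881 CPM, with −2.09 and a Rosi effect of 1.16 that was not called without ob/ob-Veh replicate 1 (0.98, adjusted p = 0.132). EC-like cells had 7455 and 6189, 1897 and 1783, and 5993 and 4448 CPM, with −2.01 and a Rosi effect of 1.61 that was not called with doublets removed (adjusted p = 0.0924). In NPVM-like cells they were 8989 and 7671, 1217 and 1944, and 6620 and 5433 CPM, with an ob/ob effect of −2.49 (SE 0.35, adjusted p = 0.000541) and a Rosi effect of 1.98 (SE 0.34, adjusted p = 0.00211).

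**Figure D3:**
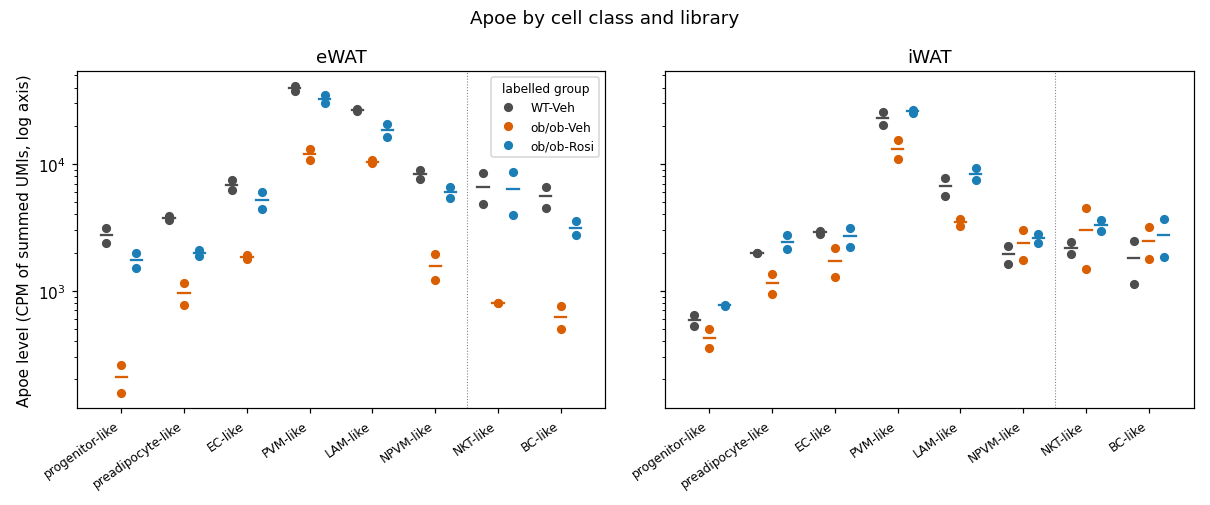
Apoe level (CPM of summed UMIs, log axis) by cell class, one point per library, coloured by labelled group, with a bar at each group's mean (n = 2), in eWAT (left) and iWAT (right). Right of the dotted line stand the lymphocyte-like classes, where the eWAT libraries labelled ob/ob-Veh are also lowest (801 and 802 CPM in NKT-like cells).

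In iWAT the Apoe difference was called in LAM-like cells alone among the 6 classes. The values were 7795 and 5595 CPM in WT-Veh, 3653 and 3264 in ob/ob-Veh and 9358 and 7421 in ob/ob-Rosi, with an ob/ob effect of −1.39 (SE 0.36, adjusted p = 0.0266) and a Rosi effect of 1.76 (SE 0.37, adjusted p = 0.00976). Both ob/ob-Veh libraries were lowest, on 41 and 22 cells, and neither effect was called without either of them (adjusted p = 0.0954 to 0.152). With the listed genes kept among those that define clusters the differences were −0.64 (adjusted p = 0.535) and 1.11 (adjusted p = 0.245). Finer clustering (adjusted p = 0.317 and 0.147) and the sum of macrophage-like classes (adjusted p = 0.203 and 0.118) also lost both calls, and thinning (adjusted p = 0.063) and library-size scaling (adjusted p = 0.0935) lost the first. NKT-like cells of iWAT had 1935 and 2411, 4521 and 1496, and 2973 and 3621 CPM of Apoe, values that overlap between labels. In ob/ob-Veh replicate 1 the LAM-like level lay below that of NKT-like cells, and over groups it was 1.15 to 3.08 times the lymphocyte-like level. The part of free RNA was not tested. The PVM-like class of iWAT cannot be compared by name: cluster 5, which held 98.0% of its ob/ob-Veh cells, had Mmp9 and no PVM marker among its leading genes, while the others came mostly from clusters 3, 7 and 10. Summed over clusters 3, 5, 7 and 10, Apoe was 20163 and 25582 CPM, 15489 and 10980, and 25169 and 26775, with −0.96 (SE 0.42, adjusted p = 0.183) and 1.16 (SE 0.42, adjusted p = 0.0935).

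The eWAT PVM-like class was also split by label, since cluster 2 held 99.5% of its cells in WT-Veh and 97.3% in ob/ob-Rosi and cluster 6, led by Mmp9 and Cd163, held 97.7% in ob/ob-Veh. Within cluster 2 alone, Apoe was 41086 and 37770 CPM in WT-Veh, 12970 and 8347 in ob/ob-Veh (55 and 32 cells) and 35642 and 30257 in ob/ob-Rosi. These ob/ob-Veh cells were 2.33% of the PVM-like cells of that label, and the part of the cluster split was not tested. Within cluster 7 of iWAT, Apoe was 19194 and 18402, 15409 and 11300 (20 and 36 cells), and 20960 and 20902 CPM. The summed level of 10 LAM markers moved with the label as well, at 3834 and 4217 CPM in eWAT PVM-like cells of WT-Veh, 775 and 1122 in ob/ob-Veh and 3819 and 5289 in ob/ob-Rosi, and at 3910 and 3085, 496 and 543, and 5100 and 4908 in eWAT NKT-like cells. The summed level of genes that respond to tissue dissociation was 13754 and 16355 CPM in PVM-like cells of WT-Veh, 27340 and 21201 in ob/ob-Veh and 14417 and 14412 in ob/ob-Rosi. Their part in the results was not tested. Other eWAT classes were split by label in the same way. The ob/ob-Veh cells came from progenitor clusters 4 and 7 (53.7% and 43.8%), preadipocyte clusters 1 and 5 (66.5% and 33.0%) and NPVM-like cluster 12 (86.1%), while most cells of the other labels came from progenitor cluster 6, preadipocyte clusters 2 and 3 and NPVM-like cluster 16. Within WT-Veh replicate 1, NPVM-like clusters 12 and 16 had 4845 and 13363 CPM of Apoe, 14.1 and 31.5 of Nr1h3 and 648 and 263 of Lipa. Progenitor cluster 6 was led by Myoc, Cpxm2 and Mfap4 with no progenitor marker among its leading genes, and clusters 4 and 7 had 3 each, so the eWAT progenitor-like values compare different cells. Among preadipocyte clusters 1, 2, 3 and 5, a preadipocyte marker stood among the leading genes of cluster 3 alone. LAM-like cells came from clusters 0, 4 and 5 under every label, of which cluster 5 was led by Mmp12 and Gpnmb, cluster 0 by Cxcl2 and Ccl3 and cluster 4 by Ms4a7, with no LAM marker among the leading genes of the latter pair. Cluster 5 held 13.2% of the ob/ob-Veh LAM-like cells, 27.4% of those of WT-Veh and 30.5% of those of ob/ob-Rosi. In WT-Veh replicate 1, Apoe was lower in cluster 5 than in cluster 0 (16824 against 35449 CPM) and Lipa higher (1166 against 697). Within cluster 0, Apoe was 35449 and 32646 CPM in WT-Veh, 13440 and 12288 in ob/ob-Veh (21 and 50 cells) and 26906 and 20631 in ob/ob-Rosi, and Lipa 697 and 841, 491 and 525, and 768 and 523 CPM. In iWAT 98.3% of the ob/ob-Veh progenitor-like cells came from progenitor cluster 4 and 93.2% of the preadipocyte-like cells from cluster 6, whereas those of the other labels came mostly from clusters 1 and 3 and from clusters 2, 5, 7 and 9. EC-like cells of iWAT came from clusters 14 and 16 in WT-Veh, 16 and 6 in ob/ob-Veh and 6 in ob/ob-Rosi.

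Lipa, the lysosomal lipase, was called lower in ob/ob-Veh in 5 of the 6 eWAT classes and 2 of the 6 iWAT classes. In eWAT PVM-like cells it was 352 and 427 CPM in WT-Veh, 180 and 242 in ob/ob-Veh and 353 and 301 in ob/ob-Rosi. The ob/ob effect was −1.0 (SE 0.24, adjusted p = 0.049) and was not called without any 1 of the WT-Veh or ob/ob-Veh libraries (−1.17 to −0.82, adjusted p = 0.13 to 0.346), nor with doublets removed, library-size scaling or TMM without ribosomal protein and mitochondrial genes (adjusted p = 0.0528 to 0.0785), and the Rosi effect was 0.77 (SE 0.24, adjusted p = 0.108). In NPVM-like cells it was 461 and 536, 117 and 246, and 650 and 328 CPM, with −1.55 (SE 0.36, adjusted p = 0.0201) and 1.48 (SE 0.35, adjusted p = 0.018). Neither was called without ob/ob-Veh replicate 1 (−1.16 and 1.09, adjusted p = 0.207 and 0.216), nor the ob/ob effect without a WT-Veh library (adjusted p = 0.0928 and 0.109) or the Rosi effect without ob/ob-Rosi replicate 1 (0.94, adjusted p = 0.0571). LAM-like cells, the class richest in Lipa, had 906 and 1039, 705 and 636, and 1027 and 770 CPM. Here the ob/ob-Veh libraries were lowest, but the difference did not pass the test (−0.71, SE 0.25, adjusted p = 0.145). The log2 ratio of Lipa means, ob/ob-Veh to WT-Veh, was −1.77 in NKT-like and −1.84 in BC-like cells of eWAT. It was −0.89 in PVM-like and −1.46 in NPVM-like cells. Those 2 classes stood at 1.56 to 3.83 and 2.33 to 3.31 times the lymphocyte-like level, and the part of free RNA was not tested.

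Lipa was also called outside the macrophages. In eWAT EC-like cells it was 405 and 477 CPM in WT-Veh, 129 and 114 in ob/ob-Veh and 356 and 277 in ob/ob-Rosi, an ob/ob effect of −1.98 (SE 0.26, adjusted p = 0.00336) that was called without any 1 library, and a Rosi effect of 1.49 (SE 0.26, adjusted p = 0.012) that was not called without ob/ob-Veh replicate 1 or 2 (adjusted p = 0.0683 and 0.126) or with doublets removed (adjusted p = 0.112). NKT-like cells had 196 and 178, 54.2 and 55.8, and 218 and 201 CPM, so Lipa in EC-like cells stood 1.51 to 2.36 times above a reference that moved the same way. In progenitor-like (108 and 104, 43.4 and 58.2, and 96.6 and 106 CPM) and preadipocyte-like cells (104 and 126, 46.8 and 62.8, and 102 and 117 CPM) both effects were called, at −1.11 and −1.19 and at 1.06 and 1.11. The ob/ob effects were not called without either ob/ob-Veh library or WT-Veh replicate 2, nor in progenitor-like cells without WT-Veh replicate 1. The Rosi effects were not called without either ob/ob-Veh library or ob/ob-Rosi replicate 2, nor in progenitor-like cells without either WT-Veh library (adjusted p = 0.0567 to 0.463 over all of these). In progenitor-like cells both were also lost in thinned cells and with library-size scaling (adjusted p = 0.0602 to 0.236), and the Rosi effect without a filter on low counts and at coarser clustering (adjusted p = 0.0674 and 0.0753). Those levels were at or below the lymphocyte-like one in at least 1 group and the part of free RNA was not tested.

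In iWAT, Lipa in LAM-like cells was 1468 and 894 CPM in WT-Veh, 578 and 684 in ob/ob-Veh and 1039 and 786 in ob/ob-Rosi, 13.9 to 14.8 times the lymphocyte-like level. The ob/ob effect was −1.35 (SE 0.34, adjusted p = 0.0232) and the Rosi effect 1.02 (SE 0.34, adjusted p = 0.0702). The ob/ob effect was not called without either ob/ob-Veh library (adjusted p = 0.184 and 0.127) or with library-size scaling (adjusted p = 0.097), and with other clusters it was −0.52 (finer clustering, adjusted p = 0.644) or −0.46 (listed genes kept, adjusted p = 0.599). Summed over clusters 3, 5, 7 and 10, Lipa was 428 and 306, 138 and 168, and 394 and 247 CPM, with −1.44 (SE 0.31, adjusted p = 0.0346) and 1.27 (SE 0.31, adjusted p = 0.0335). Neither was called without either ob/ob-Veh library (adjusted p = 0.143 to 0.273), nor the second without either ob/ob-Rosi library (adjusted p = 0.158 and 0.0842). Both calls were also lost with library-size scaling, with the listed genes kept and at coarser or finer clustering (−1.26 to −1.06, adjusted p = 0.0535 to 0.0696, and 0.84 to 1.07, adjusted p = 0.0556 to 0.0962). In cluster 7 alone it was 1084 and 486 CPM in WT-Veh and 535 and 421 in ob/ob-Veh, which overlap. Lipa means in NKT-like cells of iWAT were 81.1 CPM in WT-Veh, 45.4 in ob/ob-Veh and 61.7 in ob/ob-Rosi, and the part of free RNA was not tested. NPVM-like cells had 380 and 198, 88.4 and 185, and 316 and 228 CPM, with a Rosi effect of 1.42 (SE 0.43, adjusted p = 0.0495) that was not called without any 1 ob/ob library (adjusted p = 0.127 to 0.316), nor in thinned cells, with library-size scaling, with the listed genes kept or at coarser clustering (0.98 to 1.39, adjusted p = 0.0571 to 0.138).

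**Figure D4:**
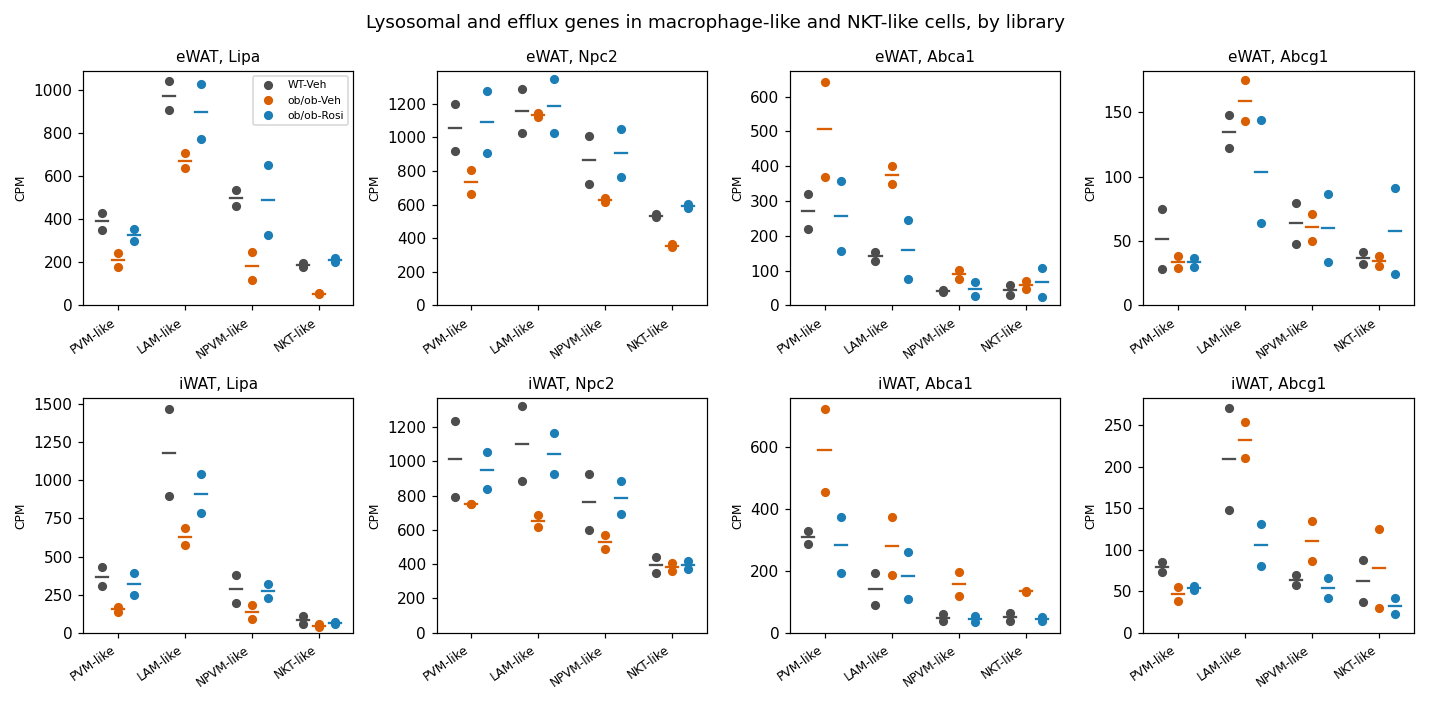
Levels (CPM of summed UMIs, linear axes) of lysosomal and efflux genes in PVM-, LAM-, NPVM- and NKT-like cells, one point per library, coloured by labelled group, in eWAT and iWAT. Lipa of eWAT NPVM-like cells lies at 117 and 246 CPM in ob/ob-Veh and at 328 or more elsewhere, while Abca1 of eWAT LAM-like cells lies at 400.1 and 349 in ob/ob-Veh and at 245 or less elsewhere.

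Npc2 and Npc1 take cholesterol over from the lipase, and only the first was called. Npc2 in eWAT LAM-like cells was 1023 and 1285 CPM in WT-Veh, 1120 and 1144 in ob/ob-Veh and 1027 and 1346 in ob/ob-Rosi, overlapping values with a difference of −0.20 to WT-Veh. In iWAT LAM-like cells it was 886 and 1320, 689 and 616, and 923 and 1163 CPM. There both ob/ob-Veh libraries were lowest, with −1.21 (SE 0.34, adjusted p = 0.0376) and 1.16 (SE 0.34, adjusted p = 0.0447), neither called without either ob/ob-Veh library (adjusted p = 0.172 to 0.214). The ob/ob effect was also not called without WT-Veh replicate 2 (adjusted p = 0.147), nor the Rosi effect without either ob/ob-Rosi library (adjusted p = 0.065 and 0.238). Both calls were also lost with library-size scaling, with the listed genes kept among those that define clusters, at coarser or finer clustering and with macrophage-like classes summed (−0.92 to −0.47, adjusted p = 0.144 to 0.661, and 0.50 to 0.90, adjusted p = 0.156 to 0.579). In eWAT preadipocyte-like cells Npc2 was 676 and 880.2, 359 and 403, and 592 and 913 CPM (−1.14, SE 0.26, adjusted p = 0.0208, and 1.08, SE 0.26, adjusted p = 0.0223), and in progenitor-like cells 688 and 883, 347 and 366, and 557 and 878 CPM (−1.17, SE 0.32, adjusted p = 0.0434, and 1.05, SE 0.32, adjusted p = 0.0749). NKT-like cells had 525 and 542, 346 and 363, and 577 and 603 CPM, so these stood 1.01 to 1.47 times the reference, and none of these calls held without either ob/ob-Veh library, the ob/ob effects not without either WT-Veh library and the Rosi effect not without ob/ob-Rosi replicate 2 (adjusted p = 0.0681 to 0.352). Both preadipocyte-like calls were also lost at coarser or finer clustering, with progenitor clusters led by macrophage markers kept and with all progenitor cells summed (adjusted p = 0.0564 to 0.0747), and the progenitor-like ob/ob call with library-size scaling, at coarser clustering and in that sum (adjusted p = 0.0528 to 0.0747). In EC-like cells the Rosi effect was called (1.15, SE 0.25, adjusted p = 0.0307) at 373 and 383, 216 and 202, and 396 and 463 CPM, below the reference, and was lost without either ob/ob-Veh library or ob/ob-Rosi replicate 2 (adjusted p = 0.138 to 0.244), in thinned cells (adjusted p = 0.186) and with doublets removed (adjusted p = 0.221).

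Npc1 was called in no class of either depot. Its fitted differences ran from −0.64 to 0.37 for the ob/ob effect and from −0.51 to 0.49 for the Rosi effect, and its levels from 78.4 to 178 CPM in LAM-like and 68.1 to 128 in PVM-like cells of eWAT.

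The transporter Abca1 was called once, but its mean in ob/ob-Veh lay above that of WT-Veh in all 3 macrophage-like classes of both depots. This order was not particular to macrophages. Progenitor-, preadipocyte-, EC- and lymphocyte-like cells had it too, with log2 ratios from 0.0101 (eWAT progenitor-like) to 1.42 (iWAT NKT-like). In eWAT PVM-like cells it was 221 and 320 CPM in WT-Veh, 643 and 368 in ob/ob-Veh and 357 and 155 in ob/ob-Rosi. The 2 ob/ob-Veh values were the highest, and the difference did not pass the test (0.81, SE 0.40, adjusted p = 0.237). In LAM-like cells it was 128 and 153, 400.1 and 349, and 245 and 75.6 CPM, also uncalled (1.24, SE 0.38, adjusted p = 0.0953, and −1.04, SE 0.37, adjusted p = 0.161). The 2 ob/ob-Rosi libraries lay far apart there, and the Rosi effect was −2.08 (adjusted p = 0.000167) without replicate 1 and −0.43 without replicate 2. Without ob/ob-Rosi replicate 1 the ob/ob effect was 1.23 (adjusted p = 0.00267). NKT-like cells had 58.2 and 29.9, 48.0 and 69.4, and 108 and 24.5 CPM, the same high and low ob/ob-Rosi library.

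In iWAT, Abca1 summed over clusters 3, 5, 7 and 10 was 331 and 287 CPM in WT-Veh, 726 and 456 in ob/ob-Veh and 374 and 195 in ob/ob-Rosi (0.78, SE 0.39, adjusted p = 0.233, and −0.87, SE 0.39, adjusted p = 0.152). Within cluster 7 it was 338 and 203 CPM in WT-Veh and 1026 and 561 in ob/ob-Veh. LAM-like cells had 194 and 89.8, 373 and 186, and 260 and 108 CPM, which overlap, and their direction turned without 1 library: without ob/ob-Veh replicate 1 the ob/ob effect was −0.14 and the Rosi effect 0.57, and without ob/ob-Rosi replicate 2 the Rosi effect was 0.33. NPVM-like cells had 59.3 and 36.3, 196 and 119, and 55.1 and 35.7 CPM, where the Rosi effect was called (−1.4, SE 0.36, adjusted p = 0.0305) and the ob/ob effect was 1.46 (SE 0.38, adjusted p = 0.0507). Abca1 of NKT-like cells was 64.1 and 36.8, 133 and 136, and 36.4 and 50.4 CPM, close to that of NPVM-like cells under each label. BC-like cells had more (313 and 66.5, 211 and 229, and 82.0 and 115.5 CPM), and NPVM-like cells 0.252 to 0.717 times their level, and the part of free RNA was not tested. That call was not kept without any 1 ob/ob library (−1.67 to −0.85, adjusted p = 0.0606 to 0.328), at finer clustering (adjusted p = 0.103) or with macrophage-like classes summed (adjusted p = 0.105). Preadipocyte-like cells had 141 and 165, 311 and 357, and 156 and 153 CPM, with no overlap between ob/ob-Veh and the rest but from different clusters (cluster 6 in ob/ob-Veh), and missed the threshold (1.13, SE 0.26, adjusted p = 0.0745, and −1.1, SE 0.26, adjusted p = 0.066).

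Abcg1, which exports cholesterol to larger lipoprotein particles, was not called in any macrophage-like class. In eWAT LAM-like cells it was 122 and 148 CPM in WT-Veh, 143 and 175 in ob/ob-Veh and 144 and 63.7 in ob/ob-Rosi (0.08 and −0.44). In iWAT LAM-like cells it was 270.2 and 148, 210.1 and 254, and 131 and 79.8 CPM. It was called in the stromal cells of eWAT, where it is scarce: 8.67 and 20.2, 0.853 and 1.05, and 10.2 and 9.36 CPM in preadipocyte-like cells (−4.05, SE 0.43, adjusted p = 0.000542, and 3.43, SE 0.43, adjusted p = 0.000921), on 12 UMIs in each ob/ob-Veh library. In progenitor-like cells it was 8.65 and 12.6, 1.16 and 1.33, and 11.9 and 9.91 CPM, on 6 to 17 UMIs per library (−3.13, SE 0.62, adjusted p = 0.006, and 3.16, SE 0.64, adjusted p = 0.00701). Both progenitor-like calls were lost without ob/ob-Veh replicate 1, the ob/ob effect also without WT-Veh replicate 2 and the Rosi effect without ob/ob-Rosi replicate 1 or 2 (adjusted p = 0.0637 to 0.323). Both classes stood at 0.0264 to 0.310 times the lymphocyte-like level, where NKT-like cells had 24.5 to 91.3 CPM, and 36.7, 34.8 and 57.9 on average in the order of labels above. The part of free RNA was not tested.

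Of the receptors, Nr1h3 was called in NPVM-like cells of eWAT, a class mostly of cluster 12 in ob/ob-Veh and of cluster 16 elsewhere. It was 22.6 and 26.5 CPM in WT-Veh, 3.88 and 8.16 in ob/ob-Veh and 14.2 and 17.9 in ob/ob-Rosi, with −2.15 (SE 0.44, adjusted p = 0.00975) and 1.54 (SE 0.42, adjusted p = 0.0347). The ob/ob-Veh libraries were lowest, but both effects were lost without ob/ob-Veh replicate 1 (−1.71 and 1.09, adjusted p = 0.119 and 0.301), and the level was 0.463 to 1.70 times the lymphocyte-like one. They were also lost without WT-Veh replicate 1 (−2.25, adjusted p = 0.0674) and without ob/ob-Rosi replicate 2 (1.32, adjusted p = 0.246), respectively, and the Rosi effect with DESeq2 (adjusted p = 0.0728) and with library-size scaling (adjusted p = 0.06). In eWAT LAM-like cells Nr1h3 was 63.2 and 74.3, 51.4 and 85.7, and 42.5 and 43.7 CPM, with overlap between WT-Veh and ob/ob-Veh. Nr1h2 was called nowhere, and its largest differences, in eWAT LAM-like cells, were −0.79 (adjusted p = 0.243) and 0.80 (adjusted p = 0.244).

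Neither of the enzymes that modify cholesterol in the endoplasmic reticulum was called in any tested class by the main edgeR fit. Libraries were not paired by their number in that fit. In the sum of eWAT macrophage-like classes (described below) Soat1 was called. Soat1, which forms cholesteryl esters, was 175 and 196 CPM in eWAT LAM-like cells of WT-Veh, 242 and 244 in ob/ob-Veh and 229 and 124 in ob/ob-Rosi. In eWAT PVM-like cells it was 123 and 138, 72.4 and 76.3, and 132 and 70.6 CPM (−0.92, SE 0.27, adjusted p = 0.0835), and over clusters 3, 5, 7 and 10 of iWAT 120 and 98.3, 196 and 169, and 132 and 74.4 CPM. The 2 depots thus had values in opposite order under the PVM-like name, which covered different clusters by depot and label. The difference between the depots missed the threshold (1.5 on the log2 scale, SE 0.43, adjusted p = 0.165, edgeR). Ch25h passed the filter in 4 of the 12 class and depot pairs and was called in none, at 8 to 85 UMIs per library.

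With macrophage-like cells of eWAT summed as 1 class, 6 of the 10 genes were called, and so were 26.6% of all genes tested in that sum for the ob/ob effect and 29.8% for the Rosi effect. Nr1h3 (−2.53 and 1.99), Lipa (−2.15 and 2.14), Apoe (−1.95 and 1.4), Abcg1 (−1.51 and 1.21), Soat1 (−1.14 and 1.1) and Npc2 (−0.83 and 0.92) were called for both effects, each an ob/ob and a Rosi effect on the log2 scale. That sum holds few LAM-like cells in ob/ob-Veh, and Abcg1, Soat1 and Npc2 were called within none of the 3 macrophage-like classes of eWAT. In iWAT, Lipa was the only one of the 10 called in that sum (−1.84 and 1.66), where 13.5% and 21.8% of all genes were called.

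The effects in the 2 depots were compared in 1 fit of both. Over all genes 0.472% of pairs were called for a depot difference of the ob/ob effect and 0.265% for the Rosi effect. Of the 10 genes, Apoe in progenitor-like cells differed for both (iWAT minus eWAT, 3.30, SE 0.45, adjusted p = 0.00338, and −2.22, SE 0.45, adjusted p = 0.0359), and Abcg1 in progenitor-like cells for the Rosi effect (−3.56, SE 0.67, adjusted p = 0.0243). Both lay at or below the lymphocyte-like level, and the part of free RNA was not tested. Classes were matched between depots by name, though equal names covered different clusters. The iWAT LAM-like class was cluster 15 alone, with Stmn1, Mki67 and Hist1h2ap among its leading genes, and that of eWAT clusters 0, 4 and 5. In macrophage-like cells matched by name no depot difference of the 10 genes was called, which does not show that like cells changed alike. Apoe in NPVM-like cells came nearest (2.42, adjusted p = 0.0678) and was called when scaled by library size alone (2.69, adjusted p = 0.0296).

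Other genes of the pathways were read from 6 lists. Of 18 further efflux genes and LXR partners and targets, 1 of 90 pairs was higher and 10 lower for the eWAT ob/ob effect (median −0.37, beside 1.97% and 2.74% of all pairs), and 5 higher and 3 lower for the Rosi effect (0.15, beside 3.15% and 2.39%). Among them Pltp, which moves phospholipid between lipoproteins, was 1942 and 2090 CPM in eWAT LAM-like cells of WT-Veh, 881 and 1247 in ob/ob-Veh and 1279 and 1919 in ob/ob-Rosi, lower in ob/ob-Veh (−1.09, adjusted p = 0.0436). In iWAT the list had 2 of 89 pairs higher and 2 lower (1.99% and 2.07% of all pairs), and 2 higher and 1 lower (3.95% and 3.12%). Abca7, another transporter, was higher in iWAT LAM-like cells of ob/ob-Veh (1.90, adjusted p = 0.0157, on 16 and 10 UMIs), but under the other labels its mean lay below that of NKT-like cells (21.1 to 78.7 CPM over libraries). Pltp in NKT-like cells was 617 and 403, 284 and 237, and 508 and 456 CPM, below LAM-like cells in every library. Its call was lost without either ob/ob-Veh library or WT-Veh replicate 1 (adjusted p = 0.0698 to 0.266), and that of Abca7 without either ob/ob-Veh library (adjusted p = 0.17 and 0.0947).

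The uptake receptors, 11 genes, had called pairs in both directions. In eWAT 2 of 53 pairs were higher and 9 lower for the ob/ob effect (1.97% and 2.74% of all pairs), and 9 higher and 2 lower for the Rosi effect (3.15% and 2.39%). The 9 lower and the 9 higher pairs came from 4 genes each. Cd68, a lysosomal scavenger receptor, was 906 and 967, 354 and 423, and 736 and 1179 CPM in PVM-like cells (−1.38, adjusted p = 0.0324, and 1.44, adjusted p = 0.0333). Outside macrophages its ob/ob effect was also called in progenitor-, preadipocyte- and EC-like cells (−3.49, −3.10 and −3.10). The part of free RNA there was not tested. Msr1, which takes up modified lipoproteins, was 72.2 and 81.0, 31.4 and 18.5, and 77.2 and 77.1 CPM in NPVM-like cells (−1.63, adjusted p = 0.0085, and 1.61, adjusted p = 0.00478). Vldlr lay the other way, with 52.4 and 148, 326 and 377, and 122 and 112 CPM in preadipocyte-like cells (1.71, adjusted p = 0.0172, and −1.48, adjusted p = 0.0261). In iWAT 3 of 55 pairs were higher and 2 lower for the ob/ob effect (1.99% and 2.07% of all pairs), and 4 higher and 2 lower for the Rosi effect (3.95% and 3.12%). In NKT-like cells Cd68 was 271 and 197, 53.6 and 51.5, and 290 and 363 CPM, lower than in PVM-like cells but in the same order of labels. Both Cd68 calls in PVM-like cells were lost without any 1 WT-Veh or ob/ob-Veh library and the Rosi call also without ob/ob-Rosi replicate 2. Those of Msr1 were lost without ob/ob-Veh replicate 2 (−1.26 and 1.24, adjusted p = 0.111 and 0.0915) and the first also without WT-Veh replicate 1 (adjusted p = 0.056). Of Vldlr the first was lost without WT-Veh replicate 1 (1.21, adjusted p = 0.059) and the second without any 1 ob/ob library (adjusted p = 0.0568 to 0.183).

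A list of 20 genes held lysosomal hydrolases and activators, and also Lamp1, Lamp2, Mcoln1, Tfeb, Tfe3 and Mitf, which are not hydrolases. Of its eWAT pairs 5 of 120 were lower and none higher for the ob/ob effect, and 6 higher and none lower for the Rosi effect. Over all genes 2.74% of pairs were lower for the first effect and 3.15% higher for the second. In iWAT 1 of 120 was lower and 1 higher with Rosi (2.07% and 3.95% of all pairs). Of 15 sterol transfer genes, 1 of 81 pairs was lower in eWAT and 1 higher with Rosi, and in iWAT 2 of 84 were lower and 1 higher with Rosi. The list of cholesteryl ester and oxysterol enzymes, 10 genes with Plin2 among them, had 8 of 37 pairs lower in eWAT (2.74% of all pairs). With Rosi 7 were higher and 1 lower (3.15% and 2.39%). The 8 lower and the 7 higher pairs came from 3 genes each. Plin2, which is not an enzyme, gave lower pairs in progenitor-, preadipocyte-, EC- and NPVM-like cells. It gave higher pairs in progenitor-, preadipocyte- and NPVM-like cells. In iWAT 3 of 36 pairs of the list were lower (2.07% of all pairs), among them Plin2 in preadipocyte- and LAM-like cells. None was called there for Rosi. Nceh1, which splits cholesteryl esters outside the lysosome, was 110 and 162, 56.7 and 57.0, and 106 and 121 CPM in PVM-like cells (−1.36, adjusted p = 0.018, and 1.13, adjusted p = 0.0436), and Cyp7b1, which breaks down oxysterols, was 24.1 and 17.8, 2.4 and 3.6, and 22.6 and 23.6 CPM in preadipocyte-like cells (−2.92, adjusted p = 0.000546, and 3.06, adjusted p = 0.000325). Plin2, which coats lipid droplets, was 1863 and 2518, 782 and 1124, and 1298 and 1427 CPM in iWAT LAM-like cells (−1.67, adjusted p = 0.00886). Cholesterol synthesis, 19 genes, had 2 of 102 pairs lower in eWAT (2.74% of all pairs) and, in iWAT, 1 of 108 higher and 3 lower (1.99% and 2.07%). With Rosi 2 were higher and 1 lower in each depot. Fdps was among the lower iWAT pairs at 12.0 and 8.5, 2.0 and 1.8, and 10.0 and 6.7 CPM over clusters 3, 5, 7 and 10 (−2.57, adjusted p = 0.0127), no higher than in NKT-like cells of WT-Veh (12.5 and 19.1 CPM). Of the genes named from these lists Cyp7b1 kept both calls without any 1 library. Nceh1 lost both without any 1 WT-Veh or ob/ob-Veh library and the Rosi call also without ob/ob-Rosi replicate 2 (adjusted p = 0.0519 to 0.271), and Plin2 and Fdps lost theirs without either ob/ob-Veh library (adjusted p = 0.0656 to 0.144). Nceh1 in NKT-like cells was 55.1 and 58.7, 27.9 and 24.3, and 55.4 and 71.2 CPM. No gene of the 6 lists was called between ob/ob-Rosi and WT-Veh.

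Likeness across classes and libraries was described by Pearson's r of log2(CPM + 1), over 70 class and library points of 13 classes in eWAT and 52 points of 9 classes in iWAT, which share libraries and free RNA. Apoe was most like Ms4a7 (0.886), C1qb (0.886) and Ctsb (0.873) in eWAT and C1qb (0.903), C1qc (0.888) and Ninj1 (0.879) in iWAT. For Lipa the nearest were Slc37a2 (0.886), Plin2 (0.883) and Arl11 (0.882) in eWAT, for Abcg1 Clec4a2 (0.841), Evl (0.837) and Apobec1 (0.834), and for Npc2 in iWAT Hexa (0.898). Abca1 had weaker neighbours, Ulk2 (0.774), Rin2 (0.767) and Lrp6 (0.754) in eWAT, and Nr1h3 was nearest to Angptl4 (0.784), Itgb5 (0.754) and Fabp4 (0.752). Npc1 was nearest to Plxnb2 (0.851) and Soat1 to Dnmt3a (0.786) in eWAT.

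On GRCm38 the genes lie apart from each other, apart from Ch25h (chr19:34473778-34475164) and Lipa (chr19:34492318-34527474), which are neighbours on the minus strand of chromosome 19. Apoe is at chr7:19696109-19699188, Abca1 at chr4:53030787-53159895, Abcg1 at chr17:31057675-31117988 on the plus strand, Nr1h3 at chr2:91184061-91202834, Nr1h2 at chr7:44549616-44553951, Npc2 at chr12:84754562-84773152 and Soat1 at chr1:156424525-156474331. Nr1h3 overlaps Gm13783 and Abcg1 overlaps Gm25447, each on the same strand, so reads of either pair may be hard to assign.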

How the data were processed

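Droplet single-cell RNA-seq (10x 3′ chemistry) of eWAT and iWAT SVF cells was read from filtered matrices, 2 libraries per group and depot. The authors deposited UMI counts per gene and cell, made with Cell Ranger 3.0.2 on mm10 according to the submitters' processing notes, which also name bcl2fastq 2.19.1.403. The iWAT files list gene symbols alone, ordered like those of eWAT. Each matrix comes from 1 labelled biological replicate, and p-values measure the spread between these libraries.

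Cells with 700 to 22000 UMIs, 200 to 6000 genes and under 25% mitochondrial UMIs were kept. They were clustered per depot with scanpy 1.11.5 and leidenalg 0.10.2 (2000 variable genes, 25 principal components, 20 neighbours, resolution 1), and adipocyte progenitor cells were clustered again (15 components, resolution 0.6). The 10 genes and those of the pathway lists (102 in all) were left out of the variable genes, and kept in an alternative. Classes were named from marker lists, and the naming rule was adjusted after the clusters had been seen. Doublets called by Scrublet (1.58% to 14.6% per library) were kept, and removed in an alternative. The 10 genes and the pathway lists were chosen with earlier results of these data known.

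UMIs were summed per library and class of at least 20 cells. Each class and depot was fitted with edgeR 4.0.16 in R 4.3.3 (TMM, filterByExpr, quasi-likelihood test, the 3 groups in 1 fit), with Benjamini-Hochberg adjustment over all genes of the class. DESeq2 1.42.0 was an alternative. Log2 differences are fitted values and need not equal the ratio of the printed CPM, which are scaled by the class's UMIs. On simulated counts with known changes, 29 to 83 of 100 genes changed 4-fold and 1 to 31 of 100 changed 2-fold were called per class, so a gene left uncalled is not shown to be unchanged. The 10 genes were named in every class, and from each list up to 2 called genes per direction with the largest changes, from which examples were taken. Some listed genes count in their lists but are not reported here singly. Other alternatives were library-size scaling, no filter, no minimum change, other resolutions, kept genes, cells thinned to 700 UMIs and each library left out.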

Additional observations from a re-analysis of the deposited data

Results flagged for a closer look

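In progenitor-like cells the ob/ob effect on Apoe differed between the depots, by 3.30 on the log2 scale (iWAT minus eWAT, SE 0.45, adjusted p = 0.00338, edgeR). The Rosi effect on Apoe in the same class differed by −2.22 (SE 0.45, adjusted p = 0.0359), and that on Abcg1 by −3.56 (SE 0.67, adjusted p = 0.0243). In eWAT the class held different clusters by label: cluster 6, with no progenitor marker among its leading genes, in WT-Veh (93.5%) and ob/ob-Rosi (93.6%), and clusters 4 and 7, with 3 each, in ob/ob-Veh. Both genes lay at or below the level of lymphocyte-like cells there, and the part of free RNA was not tested.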

How the results depend on the processing

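Limits: 2 libraries a group give little power, groups are named by label only, and the free RNA differs with the label. Over the alternatives other than left-out libraries, the called pairs of the 10 genes held their call in 444 cases and lost it in 63, and with a library left out in 153 and 87, with no change of sign. Of the 444, 40 came from dropping the 1.1-fold minimum, where no call can be lost. That setting is also part of the tally of listed genes below. Counts of called pairs moved as follows. The share of all genes called was not counted in these alternatives, so these counts have none beside them. The eWAT ob/ob count was 25 without a filter. The iWAT ob/ob count was 10 with DESeq2, 9 without a filter, 8 with the replicate block and 1 with library-size scaling, with the listed genes kept among the variable genes and at resolution 2. The iWAT Rosi count was 9 with DESeq2 and without a filter, 11 with the replicate block, 2 with library-size scaling and at resolution 0.5, and 1 with the listed genes kept and at resolution 2. The iWAT count between ob/ob-Rosi and WT-Veh was 1 with DESeq2 and without a filter. Leaving out 1 library gave 8 to 22 and 4 to 17 in eWAT, 0 to 11 and 0 to 10 in iWAT, and 0 to 4 between ob/ob-Rosi and WT-Veh in iWAT. The depot differences called were 3, and 4 with library-size scaling.

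The labels do not tie same-numbered libraries to each other, and the numbers were not taken as pairs: their deviations correlated by −0.0407 to 0.356 in eWAT (15 of 18 above 0.1, including each one of progenitor-, preadipocyte-, EC- and PVM-like cells) and by −0.0883 to 0.6 in iWAT (8 of 18, including each one of EC-like cells). The share of all genes called with the replicate block was not counted. That block gave 23 and 21 calls in eWAT, 8 and 11 in iWAT, and kept all 40 called pairs. In eWAT it added Abca1 in LAM-like cells (both effects) and preadipocyte-like cells (Rosi), Soat1 in EC-like (both) and PVM-like cells (ob/ob), Ch25h in preadipocyte-like cells (both), Abcg1 and Npc2 in EC-like and Nr1h3 in PVM-like cells (ob/ob), and Lipa in PVM-like and Npc2 in progenitor-like cells (Rosi). In iWAT it added Abca1 in preadipocyte-like (both), NPVM-like (ob/ob) and PVM-like cells (Rosi), Apoe in PVM-, preadipocyte- and progenitor-like cells (Rosi), Lipa in EC-like (ob/ob) and LAM-like cells (Rosi) and Abcg1 in PVM-like cells (ob/ob).

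Some signs turned. Abca1 in iWAT LAM-like cells was −0.14 for the ob/ob effect without ob/ob-Veh replicate 1 (left-out libraries gave −0.14 to 1.11), and for the Rosi effect 0.068 in thinned cells, 0.33 without ob/ob-Rosi replicate 2 and 0.57 without ob/ob-Veh replicate 1 (−0.91 to 0.57). Marco in eWAT LAM-like cells, a call that rests on 1 library, was −5.18 in thinned cells, −0.95 without ob/ob-Veh replicate 1 (−0.95 to 5.19) and −0.18 with macrophage classes summed. Msr1 in eWAT NPVM-like cells was 0.11 with macrophage classes summed. The cause was not tested. Called pairs of the listed genes picked by the naming rule held in 1034 and lost in 170 cases, and with a library left out in 320 and 249. Keeping progenitor clusters led by macrophage markers, an alternative chosen after seeing the data, gave 15, 14, 4 and 6 calls.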
